A study of Rattus norvegicus with 16 samples.

Results

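Type 2 conventional dendritic cells (cDC2) sorted from the thymus were compared with those sorted from the spleen of male Lewis rats, across every transcript cluster of a rat expression array. The comparison was between 4 of the 16 arrays of the series, 2 for each organ, and took in all 23188 clusters. In both organs cDC2 were sorted by flow cytometry as live (PI-) CD45+ MHCII+ CD103+ CD172a+ cells, and no other genotype or treatment was named. The remaining 12 arrays held cDC1 (CD103+ CD172a-), CD103- cells and macrophages of the same organs, again 2 arrays a group. The age of the animals was not given in the labels. Nor did the labels say whether the 2 arrays of a group came from separate animals or from pools. The p-values below therefore measure only the spread between these samples, estimated over all 16 arrays and not the 4 of cDC2 alone. The cells of the organs were also enriched in different ways before the sort. Splenic cells were taken from an OptiPrep density gradient, whereas thymic cells were labelled with an antibody to MHC class II and collected on magnetic beads by autoMACS, a step whose program changed in the course of the work. Organ and enrichment therefore cannot be told apart in any value below.

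Conventional DCs take up antigen, carry it to T cells and present it on MHC molecules. The cDC2 branch is marked by Sirpa (CD172a) and depends on the transcription factor Irf4, and in the mouse spleen a large share of cDC2 needs signals through the receptor Notch2. In the mouse thymus cDC2 are mostly immigrants from the blood and take part in the deletion of self-reactive thymocytes and in the formation of regulatory T cells, and DCs of the thymic medulla produce Ccl17 and Ccl22, the ligands of Ccr4.

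Values are deposited log2 signals, so that a difference of 1 is a 2-fold change, and each is written for replicates 1 and 2 of a group in that order. A difference was called when its p from limma's moderated test, two-sided and adjusted by Benjamini-Hochberg over all 23188 clusters, was under 0.05. The 95th percentile of 1157 olfactory receptor clusters, 5.72, served as a background level. A group with both arrays at or below it has no measured level, and the difference from it is written as "at least", the distance of the other group from 5.72. By the means of the groups 45.1% of the clusters were at or below it in cDC2 of both organs.

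The replicate arrays lay close together. The root mean square difference between them was 0.374 for thymic and 0.43 for splenic cDC2, against 0.819 between the means of the organs, and Pearson's r across clusters was 0.9931 and 0.9907. The array medians of the series lay between 5.87 and 5.95, and 2 arrays a group limit the precision of every value.

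Sirpa and Itgae, the genes of the sort antigens CD172a and CD103, and Irf4 were not called different between the organs. Of 9 genes of sort and subset identity measured, 2 (22.2%, Cd163 and Cd24) were higher in thymic cDC2. Another 3 (33.3%), Flt3 among them, were lower, against 7.99% higher and 6.6% lower over all clusters. Sirpa, the CD172a antigen itself, read 17.97 and 18.26 in thymic and 17.93 and 18.18 in splenic cDC2, a difference of 0.06 ± 0.44 (SE, adjusted p = 0.961 by limma). Itgae, the CD103 antigen, read 13.53 and 13.79 in the thymus and 13.10 and 13.43 in the spleen (difference 0.40 ± 0.23, adjusted p = 0.315). Irf4 read 14.64 and 14.12 against 14.37 and 14.35, a difference of 0.02 ± 0.27. For Sirpa and Irf4 the groups overlapped, and for Itgae the organs lay side by side without overlap but within the error of the test. Il22ra2, the soluble IL-22 inhibitor, read 15.82 and 15.98 in thymic and 12.97 and 12.39 in splenic cDC2, while the means of cDC1 and CD103- cells lay between 6.19 and 7.75 in either organ. It was thus high in cDC2 of both organs, and 3.22 ± 0.36 higher in the thymus (adjusted p = 3.74e-06).

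Of the 23188 clusters, 3382 (14.6%) were called. In thymic cDC2 1852 clusters (7.99%) were higher and 1530 (6.6%) lower, and 2445 of the calls were changes of at least 2-fold. Fitted differences of at least 16-fold were called for 99 clusters higher and 48 lower in the thymus. All 3382 called clusters had groups that did not overlap, which was true of 51.1% of all clusters. Without at least 1 of the 4 arrays 1641 of the calls were lost, and 1741 were called without each of them in turn.

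**Figure D1:**
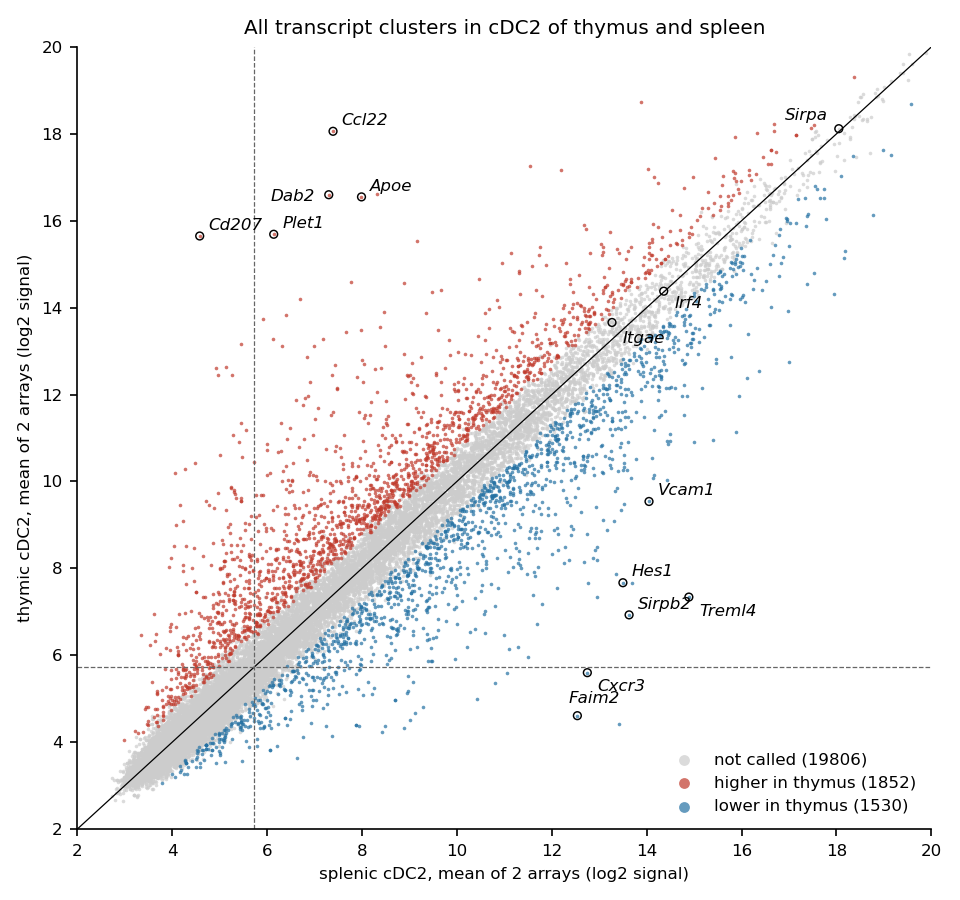
Mean log2 signal of each of the 23188 transcript clusters in thymic cDC2 (vertical) against splenic cDC2 (horizontal), 2 arrays a group, with clusters called higher in the thymus in red (1852) and lower in blue (1530). The line marks equal levels and the dashed lines the background level of 5.72. Sirpa, Itgae and Irf4 sit on or near the line, while Ccl22 and Cd207 stand far above it and Faim2 and Treml4 far below.

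The largest measured difference was that of Ccl22, a chemokine that attracts Ccr4-bearing T cells. It read 18.15 and 17.97 in thymic and 7.90 and 6.88 in splenic cDC2, so that both thymic arrays were near the top of the scale and both splenic arrays near the lower end, a difference of 10.67 ± 0.32 (SE, adjusted p = 6.68e-13 by limma). Ccl17, the other ligand of Ccr4, read 14.29 and 14.10 against 6.86 and 6.51, and rose by 7.51 ± 0.32. The groups were far apart for both chemokines, and the thymic replicates lay close together.

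Cd207 (langerin), the C-type lectin that forms Birbeck granules in Langerhans cells, read 15.79 and 15.52 in the thymus and 4.16 and 5.00 in the spleen. Both splenic arrays were at background, so that the difference was at least 9.93 (adjusted p = 1.8e-11 by limma). Plet1, a surface protein of epithelial and some mouse dendritic cells, read 15.88 and 15.49 against 6.34 and 5.94, a difference of 9.54 ± 0.60. Both genes went from near or at background in the spleen to among the brighter signals in the thymus.

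Dab2, an adaptor of clathrin-mediated endocytosis, read 16.59 and 16.61 in thymic and 7.01 and 7.59 in splenic cDC2 (9.30 ± 0.39). Apoe, the apolipoprotein that carries cholesterol out of cells, read 16.10 and 17.00 against 6.98 and 8.99 (8.56 ± 0.50), with splenic replicates far apart. Mmp12, the macrophage elastase, read 16.84 and 16.37 against 8.79 and 7.83 (8.29 ± 0.35). Cldn1, a claudin of tight junctions, read 13.39 and 14.06 against 5.18 and 6.65 (7.81 ± 0.42). In each of these 4 genes both thymic arrays lay far above both splenic arrays.

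The 15 genes that rose most also included F13a1 (the coagulation factor XIII A chain, at least 7.43), Axl (a receptor tyrosine kinase for Gas6, 7.19 ± 0.50), Plau (urokinase, 7.16 ± 0.49), Cish (an inhibitor of cytokine signalling induced through STAT5, at least 6.91), Lgals1 (galectin-1, 6.83 ± 0.27) and Abi3bp (an extracellular matrix protein, 6.80 ± 0.35). The call of each of the 15 was kept without each array in turn.

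The largest measured fall was that of Treml4, a receptor of mouse splenic myeloid cells that binds dead cells. It read 7.05 and 7.63 in thymic and 14.96 and 14.81 in splenic cDC2, and fell by 7.54 (SE 0.28, adjusted p = 1.17e-11 by limma). Cxcr3, the receptor for Cxcl9, Cxcl10 and Cxcl11, read 5.66 and 5.54 against 12.53 and 12.96, and was at least 7.02 lower in the thymus. Faim2, an inhibitor of Fas-mediated cell death, read 4.97 and 4.25 against 12.52 and 12.55, and was at least 6.81 lower. Cxcr3 and Faim2 were thus at background in thymic cDC2 and clearly present in splenic cDC2.

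Hes1, a transcriptional repressor that Notch signals induce, read 7.58 and 7.77 in the thymus and 13.11 and 13.89 in the spleen, a fall by 5.83 (SE 0.39, adjusted p = 6.39e-09 by limma). Sirpb2, a relative of Sirpa, read 6.46 and 7.40 against 13.67 and 13.59 (log2 difference -6.70 ± 0.27), and Hrh2, the H2 histamine receptor, read 7.42 and 7.90 against 13.22 and 14.17 (-6.04 ± 0.46). The 15 largest falls also held Cdon (a co-receptor of hedgehog proteins, -5.61), Bank1 (a scaffold of B cell receptor signalling, -5.52), Slpi (a secreted protease inhibitor, -5.50), Gpr39 (a zinc-sensing receptor, -5.46), Rtn1 (reticulon 1, -5.11), Lsmem1 (-5.10), Rnase6 (an antimicrobial ribonuclease, -4.96), Adgre4 (an adhesion receptor of myeloid cells, -4.75) and Scel (sciellin, a protein of the cornified envelope, at least 4.70 lower). As with the genes that rose, each of the 15 calls was kept without each array in turn. Slpi was far brighter in cDC1, where its thymic mean was 18.82 and its splenic mean 19.57.

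**Figure D2:**
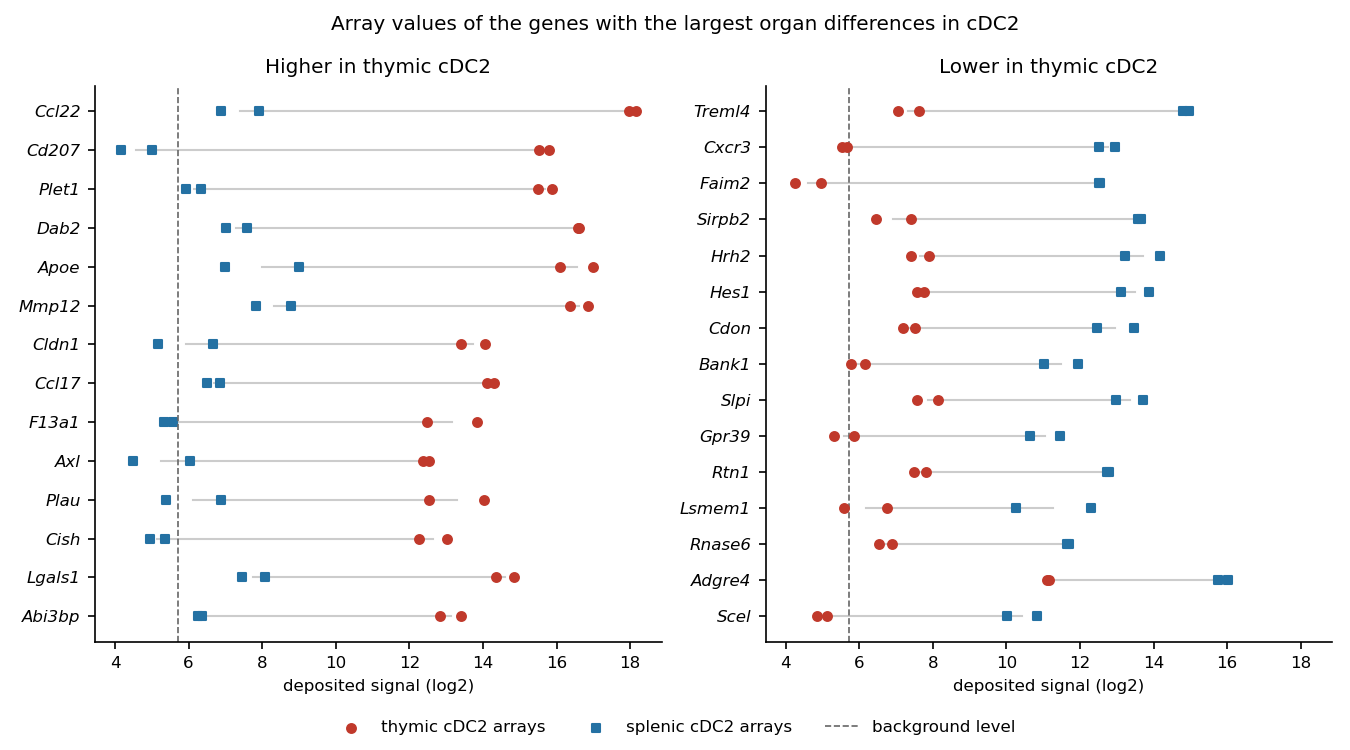
Deposited log2 signal of 14 of the 15 genes with the largest rise (left) and the 15 with the largest fall (right) in thymic against splenic cDC2, 1 point for each array, thymus as red circles and spleen as blue squares. Grey lines join the group means and the dashed line is the background level of 5.72. The distance between replicates varies from row to row, with Apoe, Axl, Cldn1, F13a1, Plau and Lsmem1 among the wider pairs.

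Cd207 and Plet1, which rose together from the low end of the scale, are shown with the start of their genes because each holds a match to the letters TGANTCA, which AP-1 factors bind. The windows come from RefSeq (build GRCr8), run from 250 bases before to 50 after the start of the gene, and are written 5′ to 3′ on the strand of the gene with the match in capitals. Cd207 lies at chr4:117719142-117719441 on the minus strand, and its match begins 54 bases before the start. Plet1 lies at chr8:59738389-59738688 on the plus strand, and its match begins 147 bases before the start.
Cd207: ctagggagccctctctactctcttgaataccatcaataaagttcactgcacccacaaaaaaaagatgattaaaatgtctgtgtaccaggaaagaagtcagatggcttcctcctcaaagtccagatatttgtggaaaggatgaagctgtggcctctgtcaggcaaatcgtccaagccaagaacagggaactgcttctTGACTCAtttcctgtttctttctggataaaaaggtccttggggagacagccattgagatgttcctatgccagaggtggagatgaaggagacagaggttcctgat
Plet1: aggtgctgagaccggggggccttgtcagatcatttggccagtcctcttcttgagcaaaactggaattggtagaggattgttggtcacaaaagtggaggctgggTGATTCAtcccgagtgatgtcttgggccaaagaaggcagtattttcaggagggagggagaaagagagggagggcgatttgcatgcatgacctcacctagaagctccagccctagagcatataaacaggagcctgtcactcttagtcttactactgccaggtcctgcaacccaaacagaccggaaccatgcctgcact
On either strand these letters were found in 7.33% of 27457 rat promoter windows of this length, and in 6.18% of the 14817 windows of genes measured. They were in 5.47% of 1298 windows of genes higher in thymic cDC2 and in 6.05% of 1009 windows of genes lower there. Among the 15 genes that rose most, 13 had a window, and 3 of these (Cd207, Mmp12 and Plet1) held a match.

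Of 28 genes of Langerhans cells and epithelial adhesion measured, 11 (39.3%) were higher in thymic cDC2 and 2 (7.1%) lower, with a median difference of 0.10 against -0.01 over all clusters. The counts of this and the following lists stand beside 7.99% higher and 6.6% lower over all clusters. Over 20662 genes with 1 cluster each, as in the lists, the shares were 8.33% and 6.74%. These shares take in features at background, since 13372 of the 23188 clusters had at least 1 cDC2 array above it. Besides Cd207 and Cldn1 the rise took in F11r, the junctional adhesion molecule A (14.87 and 14.26 against 8.77 and 8.99, difference 5.68 ± 0.29), and Cdh1, the E-cadherin of Langerhans cells and epithelia (17.08 and 17.23 against 11.94 and 12.46, 4.96 ± 0.27). Lad1, a protein of the basement membrane zone (4.50 ± 0.29), was higher as well. The falls were those of Cadm3 (11.88 and 12.43 against 15.37 and 14.95, -3.0 ± 0.31) and Cadm1 (-1.36 ± 0.19), cell adhesion molecules of the nectin-like family.

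Of 43 genes of DC maturation and migration 17 were higher and 6 lower, against 7.99% and 6.6% over all clusters, with a median of 0.62. The members that rose most after the chemokines were Socs2, a feedback inhibitor of cytokine receptors (13.72 and 14.08 against 8.10 and 8.81, 5.45 ± 0.34), Cacnb3, a calcium channel subunit of migratory DCs (12.06 and 12.54 against 6.97 and 6.84, 5.39 ± 0.60), Net1, an exchange factor for RhoA (4.21 ± 0.31), Cd200, the ligand of the inhibitory receptor Cd200r1 (11.82 and 11.83 against 8.18 and 8.19, 3.64 ± 0.26), and Tnfrsf11a, the RANK receptor (3.40 ± 0.44). Several genes often read as signs of maturation were not called. Ccr7, the receptor that leads DCs to T cell zones, read 15.21 and 14.97 against 15.00 and 13.68 (0.75 ± 0.52, adjusted p = 0.44 by limma), Cd40 differed by 0.62 ± 0.32 (adjusted p = 0.246) and Cd86 by -0.02 ± 0.24 (adjusted p = 0.977). Icam1 (-2.03 ± 0.34), Birc3 (-1.54 ± 0.27) and Nfkbia (-1.35 ± 0.23) were lower. The 6 lower members were 3 without splenic replicate 1.

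The chemokines as a list gave 11 of 34 higher and 1 lower, against 7.99% and 6.6% over all clusters. Cxcl16, the membrane-bound ligand of Cxcr6, read 13.53 and 13.44 against 9.52 and 9.68 (3.88 ± 0.22), and Ccl24 rose by at least 3.84, Ccl7 by 3.77 ± 0.59 and Ccl2 by 2.87 ± 0.54. The exception was Cxcl2, a chemokine of neutrophils (14.06 and 13.13 against 15.44 and 15.22, -1.74 ± 0.36), whose call was lost without thymic replicate 2. Falls numbered 4 with only the 4 arrays fitted and 2 with the replicate number as a block. Receptors of chemoattractants were split, with 9 of 38 higher and 10 lower. Cxcr2 (at least 5.34), the anaphylatoxin receptor C3ar1 (at least 4.13) and Ccr1 (3.48 ± 0.31) were among the largest rises, and Cxcr3, Xcr1 (4.09 and 5.56 against 8.77 and 9.82, at least 3.57 lower) and the atypical receptor Ackr1 (-2.52 ± 0.26) among the largest falls. The 10 lower receptors were 6 without thymic replicate 2.

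Hes1 and Dtx1, a ubiquitin ligase of the pathway, were the genes induced by Notch signals that fell most in thymic cDC2. Dtx1 read 4.57 and 4.43 in the thymus, both at background, and 9.05 and 8.96 in the spleen, so that it was at least 3.28 lower (adjusted p = 4.42e-10 by limma). Of 17 Notch targets measured 5 were lower, 3 of them by at least 2-fold, and 2 higher, with a median of -0.40, and 11 of the 17 were above background in cDC2 of at least 1 organ. The 2 rises, of Il2ra and Ptcra, were 1 without thymic replicate 1 or either splenic replicate. The lower members included Myc (8.11 and 8.59 against 11.38 and 11.61, -3.15 ± 0.43), Nrarp (-0.92 ± 0.25) and Ccnd1 (-0.94 ± 0.23), genes with many other inputs in the case of Myc and Ccnd1. The calls of Nrarp and Ccnd1 were each lost without 1 or more arrays, thymic replicate 1 among them in both cases.

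Among the 22 receptors and core components of the pathway 4 were lower and 4 higher. Notch2 read 10.69 and 10.68 against 11.94 and 12.13 (-1.35 ± 0.31), Notch1 differed by -1.43 ± 0.31, and Lfng, the glycosyltransferase that tunes Notch receptors, by -2.53 ± 0.28. Rbpj, the DNA-binding factor of the pathway, moved the other way, at 14.56 and 14.39 against 12.49 and 13.06 (1.70 ± 0.25), as did Poglut1, another sugar-adding enzyme of the receptors (2.02 ± 0.24). The remaining rises, those of Psen2 and Adam10, were each below 2-fold, and the 4 rises were 2 without thymic replicate 1, thymic replicate 2 or splenic replicate 1. Of the 6 ligands, Dll4 (at least 1.16) and Jag1 (1.31 ± 0.36) were higher, with Dll4 at background in the spleen and Jag1 no longer called without thymic replicate 2 or splenic replicate 2.

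The promoter windows of Hes1 and Dtx1 are shown because these were the Notch targets that fell most, with matches to TGGGAA, the core that Rbpj binds, in capitals. Hes1 lies at chr11:84212996-84213295 on the minus strand of GRCr8 and holds 2 matches on its own strand, which begin 123 and 109 bases before the gene's start. Dtx1 lies at chr12:41510024-41510323 on the plus strand, and these letters were not in its window.
Hes1: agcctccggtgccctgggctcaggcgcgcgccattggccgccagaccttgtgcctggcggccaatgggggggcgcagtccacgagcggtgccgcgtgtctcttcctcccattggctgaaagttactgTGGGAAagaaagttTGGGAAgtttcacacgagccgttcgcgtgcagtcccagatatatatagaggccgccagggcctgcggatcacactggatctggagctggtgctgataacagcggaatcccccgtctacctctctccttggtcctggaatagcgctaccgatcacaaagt
Dtx1: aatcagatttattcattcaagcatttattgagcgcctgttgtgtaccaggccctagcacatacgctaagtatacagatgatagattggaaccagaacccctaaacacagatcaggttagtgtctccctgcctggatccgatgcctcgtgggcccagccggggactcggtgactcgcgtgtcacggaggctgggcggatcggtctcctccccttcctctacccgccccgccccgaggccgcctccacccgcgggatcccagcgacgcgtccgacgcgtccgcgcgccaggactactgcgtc
These 6 letters, read on either strand, were in 25.1% of all windows and in 23.3% of those of genes measured. The share was 21.2% for genes higher and 19.4% for genes lower in thymic cDC2. These letters were in 6 of 13 windows of the genes that rose most and in 7 of 11 of those that fell most.

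Of 15 markers of the Notch-dependent cDC2A subset of the mouse spleen 8 were lower and 2 higher, with a median of -1.28. Ltb, a lymphotoxin chain (6.07 and 6.49 against 8.28 and 8.96, -2.34 ± 0.28), Ccr6 (-1.28 ± 0.24) and Tnfrsf13b (at least 1.24 lower) fell along with Hes1, Dtx1 and Notch2, while Cd24 rose by 4.21 ± 0.57 (11.30 and 10.66 against 5.69 and 7.84). Esam, a surface marker of that subset, was not called (-0.09 ± 0.26), nor was Cd4 (17.39 and 17.73 against 18.64 and 18.77, -1.15 ± 0.55, adjusted p = 0.213 by limma), and Tbx21, a transcription factor of the subset that is counted among the 8, was at background in both organs and has no fold. Markers of the cDC2B and DC3 subsets gave 4 of 16 higher and 2 lower, with F13a1, Cd14 (9.58 and 9.82 against 6.25 and 5.50, 3.83 ± 0.31), Ccl6 (2.31 ± 0.25) and Clec12a (2.0 ± 0.29) higher. The 2 falls were those of Cx3cr1 and Fcgr3a, and the call of Cx3cr1 was lost without thymic replicate 2 or splenic replicate 1. Fcgr3a read 4.42 and 4.31 against 5.50 and 5.78. The means of both organs lay below the background level, so it has no measured fold. Ccr2 (0.04 ± 0.56) and Clec10a (0.48 ± 0.32) were not called.

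Of 11 genes common to conventional DCs 7 were lower in the thymus and 1 higher, with a median of -1.06. Fewer were called lower without any 1 of the 4 arrays. Flt3, the growth factor receptor of DCs, read 12.44 and 12.66 against 13.58 and 14.06 (-1.27 ± 0.26), Id2 14.31 and 13.92 against 16.42 and 15.73 (-1.96 ± 0.25) and Bcl11a 10.07 and 9.58 against 11.57 and 12.02 (-1.97 ± 0.28). All 3 were clearly present in both organs. Zbtb46, a transcription factor of conventional DCs, fell by 1.06 (SE 0.30, adjusted p = 0.0193 by limma), a call lost without any 1 of the 4 arrays. Dpp4 (CD26) rose by 1.27 ± 0.29, a call lost without splenic replicate 2.

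Of 18 markers of cDC1 9 were lower in thymic cDC2 and 3 higher, the latter 1 without thymic replicate 1, thymic replicate 2 or splenic replicate 1. Besides Cxcr3 and Xcr1 these were led by Clec9a, the receptor for actin of dead cells (5.71 and 6.04 against 8.86 and 10.05, -3.58 ± 0.32), and Tlr3 (-2.35 ± 0.37). The mean level of the 18 markers was 8.52 and 8.78 on the thymic and 9.57 and 10.16 on the splenic cDC2 arrays, against 12.92 to 14.14 in sorted cDC1, and the part of cDC1 transcripts in these falls was not tested. In such bulk samples fewer cells of a type and less RNA per cell cannot be told apart.

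Receptors of the Trem, Cd300 and inhibitory families were lower in thymic cDC2 in 13 of 32 cases and higher in 4. After Treml4 came Cd300a (7.81 and 7.83 against 11.63 and 11.67, -3.83 ± 0.39), an inhibitory receptor for lipids of dying cells, then Treml2 (9.20 and 9.37 against 12.57 and 12.67, -3.33 ± 0.32), the adaptor Hcst (-3.17 ± 0.27) and Cd300c2 (-3.16 ± 0.27). Cd300e was an exception (10.18 and 10.24 against 6.62 and 7.18, 3.31 ± 0.24), and the other rises, of Siglec1, Siglec5 and Trem1, were each lost without 1 or more arrays. The rises numbered 1 without thymic replicate 2 and 2 without thymic replicate 1 or splenic replicate 1. Pattern recognition receptors gave 13 of 36 lower and 6 higher. Nod2, a sensor of bacterial cell walls (7.25 and 6.67 against 10.81 and 10.32, -3.60 ± 0.29), the signalling kinase Irak2 (-2.92 ± 0.24) and Tlr7, a sensor of RNA (-2.69 ± 0.33), fell, whereas Tlr4, which senses bacterial lipopolysaccharide (10.11 and 10.59 against 5.93 and 6.88, 3.94 ± 0.33), rose with its co-receptor Cd14, as did Tlr8 (2.31 ± 0.32) and Sting1 (2.21 ± 0.23).

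C-type lectins were divided by gene. Clec7a (dectin-1, a receptor for fungal glucan) read 14.94 and 14.68 against 11.61 and 11.03 (3.49 ± 0.32), and Ly75 (DEC-205) 15.13 and 15.29 against 11.41 and 12.05 (3.48 ± 0.34). Clec4a2 (-3.02 ± 0.34), Clec4a1 (-1.56 ± 0.23) and Clec4b2 (at least 3.21 lower) fell. Over the whole family 8 of 39 were higher and 5 lower, against 7.99% and 6.6% over all clusters. Of 43 integrin and tetraspanin genes 12 were lower and 8 higher, with a median of 0.06, and 5 were higher without thymic replicate 1. Itgam (CD11b) read 8.10 and 8.59 against 12.17 and 11.82 (-3.65 ± 0.24) and Itgal (CD11a) 9.66 and 10.05 against 12.67 and 12.45 (-2.71 ± 0.22), and the tetraspanin Cd9 rose by 3.46 ± 0.34.

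Cytokine receptors and ligands differed as well. Of 45 interleukins and receptors 14 were higher and 6 lower. Csf2rb, the common chain of the GM-CSF, IL-3 and IL-5 receptors, read 15.00 and 14.91 against 11.72 and 11.46 (3.37 ± 0.33), the IL-1 receptor chain Il1rap rose by 3.27 ± 0.28, the IL-33 receptor Il1rl1 by 3.02 ± 0.29 and Il7r by 2.32 ± 0.37. Il1r2, the decoy receptor of IL-1, read 10.24 and 9.93 against 14.37 and 13.90 (-4.05 ± 0.37). In the TNF superfamily the costimulatory ligands Tnfsf9 (4-1BB ligand, 8.63 and 8.37 against 13.16 and 12.76, -4.46 ± 0.33) and Tnfsf4 (OX40 ligand, 7.58 and 7.19 against 12.27 and 10.94, -4.22 ± 0.52) fell, as did Tnfrsf26 (-4.61 ± 0.31) and Tnfrsf18 (-3.15 ± 0.27). Tnfrsf11b, the soluble decoy of RANK ligand, rose by at least 3.83. The family as a whole held 7 of 38 higher and 8 lower, against 7.99% and 6.6% over all clusters.

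Lipid handling followed Apoe in part. Of 35 genes of apolipoproteins and lipid efflux 8 were higher and 5 lower. Pltp, the phospholipid transfer protein, read 13.13 and 13.44 against 7.75 and 6.61 (6.11 ± 0.44), Npc2, which moves cholesterol out of lysosomes, rose by 2.98 ± 0.20, the sterol exporter Abca1 by at least 2.49 and Abcg1 by 2.10 ± 0.22. Plin2, a coat protein of lipid droplets, read 10.03 and 10.57 against 13.32 and 13.16 (-2.94 ± 0.24), and the scavenger receptors Scarb1 (-2.13 ± 0.30) and Cd36 (-1.68 ± 0.28) fell too. The 5 lower members were 8 without splenic replicate 1. Apoc1, which lies beside Apoe, was at background in cDC2 of both organs.

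Of 25 genes of MHC class II presentation 7 were higher, all by less than 3-fold, and 1, RT1-Ha, was lower, with a median of 0.28. Over all clusters 7.99% were higher and 6.6% lower. The transactivator Ciita read 13.73 and 14.31 against 12.57 and 13.12 (1.18 ± 0.31), a call lost without thymic replicate 2 or splenic replicate 1, the ubiquitin ligase Marchf8 rose by 1.48 ± 0.28 and the protease Lgmn by 1.35 ± 0.26. The 7 were 4 without thymic replicate 2 or splenic replicate 2. Falls numbered 3 without splenic replicate 1, and the fall of RT1-Ha was lost without thymic replicate 2. Of 21 genes of class I loading 6 were higher. The largest of these was the non-classical gene RT1-M5 (10.18 and 10.66 against 4.53 and 4.43, at least 4.70). Genes of the same MHC families share sequence, so that signal may be shared between them.

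Regulators of DCs were split, with 13 of 59 transcription factors higher and 12 lower, against 7.99% and 6.6% over all clusters. Tcf7 (13.03 and 13.47 against 9.74 and 9.92, 3.42 ± 0.24), Maf (3.21 ± 0.38) and Ahr, the aryl hydrocarbon receptor (1.49 ± 0.25), rose. Klf4 (8.54 and 7.86 against 12.65 and 12.07, -4.16 ± 0.41), Irf1 (-2.15 ± 0.32), Runx2 (-1.75 ± 0.33) and Spib (-1.71 ± 0.38) fell, and the call of Spib was lost without splenic replicate 1. Irf8 was not called (0.33 ± 0.30, adjusted p = 0.595 by limma). Of 23 genes of the retinoic acid pathway 7 were higher and 2 lower, with 3 or 4 higher and 1 or 2 lower when any 1 of the 4 arrays was left out, and of 38 genes of the TGF-beta pathway 8 were higher and 7 lower. The latter were 5 higher and 3 lower without thymic replicate 1, and 4 lower without any other 1 of the arrays. In the retinoic acid pathway the receptors Rara (13.61 and 13.46 against 10.60 and 10.75, 2.86 ± 0.24) and Rxra (2.21 ± 0.30) rose, and in the TGF-beta pathway Tgfbr1 (15.38 and 15.16 against 12.75 and 12.85, 2.47 ± 0.21) and the induced matrix protein Tgfbi (4.16 ± 0.30). Dhrs3, a retinal reductase, differed by -1.62, Lrrc32, which holds latent TGF-beta at the cell surface, by -2.16, and the ligand Bmp6 by -1.92, a call lost without thymic replicate 2 or splenic replicate 1.

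Immediate early genes also respond to tissue dissociation. Of 46 such genes 23 were lower in thymic cDC2 and 7 higher, with a median of -0.86, and their mean level was 13.22 and 12.89 on the thymic and 13.92 and 13.69 on the splenic arrays. Fosb read 14.38 and 14.24 against 18.07 and 17.81 (-3.63 ± 0.26), Dusp5 10.32 and 9.76 against 14.91 and 13.93 (-4.38 ± 0.40) and Nr4a1 16.40 and 15.89 against 18.96 and 18.59 (-2.63 ± 0.29). Egr2 moved the other way (13.06 and 12.33 against 7.82 and 8.29, 4.64 ± 0.37). The 7 rises were 1 without splenic replicate 2, 3 without thymic replicate 1 and 4 without thymic replicate 2. Of 29 NF-kB pathway genes 8 were lower and 3 higher, and 5 were lower without thymic replicate 2. Cyld (-2.04 ± 0.27), Nfkbid (-1.65 ± 0.27), Birc3 and Nfkbia, which NF-kB itself induces in the case of Nfkbia and Birc3, were among them. The part of tissue handling in these groups was not tested.

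Of 28 glycolytic genes 8 were higher and 5 lower, with Tpi1 (11.48 and 10.66 against 8.64 and 8.63, 2.44 ± 0.26) and Aldoa (1.76 ± 0.25) up and Vegfa, a hypoxia-induced growth factor on that list (10.88 and 10.84 against 15.16 and 13.71, -3.58 ± 0.60), and the lactate exporter Slc16a3 (-2.19 ± 0.46, lost without splenic replicate 1) down. The 8 rises were 5 without splenic replicate 2, and the 5 falls 3 without splenic replicate 1 or thymic replicate 2. Oxidative phosphorylation gave 1 of 34 higher and cholesterol synthesis 1 of 26 in each direction, shares below the 7.99% and 6.6% of all clusters, and these counts lay between 0 and 2 with an array left out. Interferon response genes gave 4 of 40 in each direction, near those shares, and 2 in a direction with some arrays left out. Those shares also count clusters at background, whereas 34 of 34, 24 of 26 and 36 of 40 members of these lists, in that order, had a cDC2 array above it. Of 49 cell cycle genes, 48 of them above background, 3 (6.1%) were lower, near the 6.6% of all clusters. These were Ccnd1, Cdkn1b and Cdkn2c. The call of Ccnd1 was lost without thymic replicate 1 or splenic replicate 2, and that of Cdkn2c without replicate 1 of either organ. The 6 that were higher (12.2%, against 7.99%) were fewer without any 1 of the 4 arrays. The largest rise was that of the inhibitor Cdkn1a (15.08 and 14.99 against 11.51 and 10.40, 4.08 ± 0.48).

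**Figure D3:**
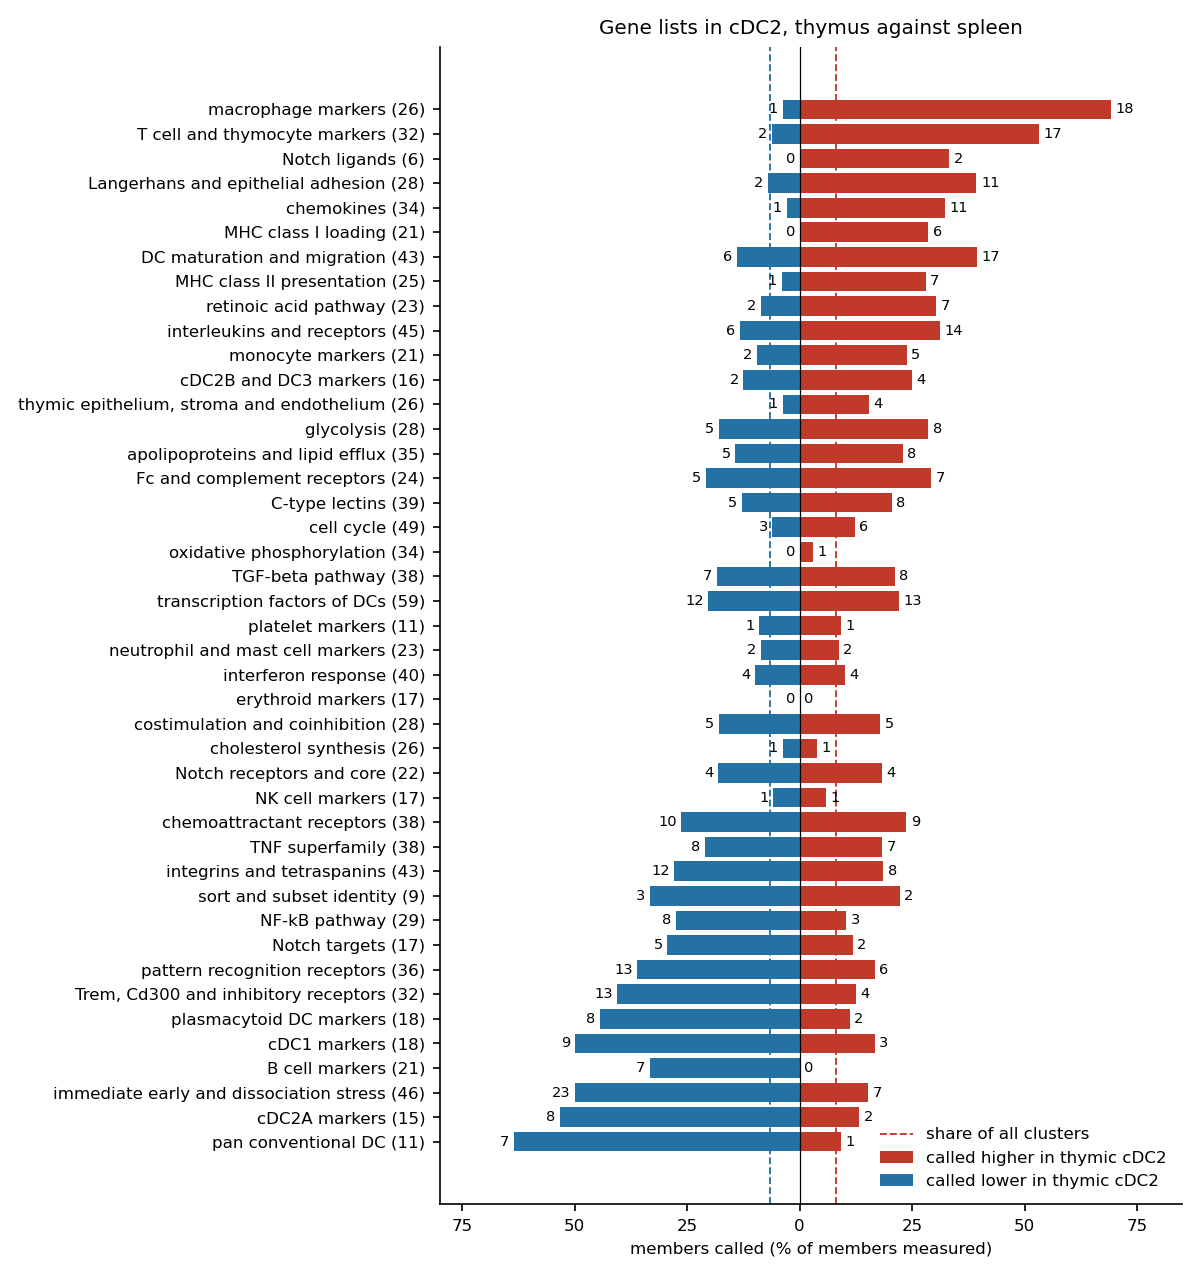
Share of the measured members of each gene list called higher (red, to the right) or lower (blue, to the left) in thymic against splenic cDC2, with the number of members measured in parentheses and the number called beside each bar. The dashed lines are the shares over all clusters, 7.99% higher and 6.6% lower. Macrophage and thymocyte markers have the longest bars to the right, and genes common to conventional DCs, cDC2A and cDC1 markers and immediate early genes the longest to the left.

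Markers of some other cell types differed between the organs. NK cell and platelet markers gave 1 call in each direction, of 17 and 11 genes, neutrophil and mast cell markers 2 of 23 in each direction, and monocyte markers 5 of 21 higher and 2 lower with a median of 0.04. With an array left out the counts of 1 or 2 among these lay between 0 and 2. Of 26 macrophage markers 18 were higher in thymic cDC2 and 1, Vcam1, lower, with a median of 2.51. Their mean level was 8.99 and 9.38 on the thymic and 6.66 and 7.14 on the splenic cDC2 arrays, against 14.26 and 14.37 in thymic macrophages and 6.01 to 6.44 in cDC1. In CD103- cells it was also higher in the thymus, at 11.15 and 11.29 against 9.03 and 9.96 in the spleen. Cd163, the antigen used to sort the macrophages, had a mean of 11.34 ± 0.48 in thymic and 5.46 ± 1.03 in splenic cDC2 (SD, n = 2, difference 5.88 ± 0.49, SE) and had a mean of 16.56 in thymic macrophages. C1qc read 11.42 and 11.94 against 6.33 and 7.82, and Lyve1 10.83 and 11.54 against 5.82 and 5.31. Vcam1, an adhesion molecule of macrophages, went the other way (9.37 and 9.71 against 14.17 and 13.94, -4.51 ± 0.29), and Marco, Spic, Trem2 and Vsig4 were at background in cDC2 of both organs. Axl is itself 1 of these markers. Apoe, Mmp12, Pltp, F13a1 and Cd14 were also higher in thymic cDC2, and the part of macrophage transcripts in any of these rises was not tested. Of the 15 genes that rose most, 9 had a higher mean in thymic cDC2 than in thymic macrophages. For Ccl22 the thymic macrophage mean was 7.98, for Cd207 8.24, for Plet1 7.33, for Cldn1 7.14 and for Cish 6.82. Of all 1852 clusters higher in thymic cDC2, 1191 (64.3%) were above their thymic macrophage level, against 56.8% of all clusters. These genes and clusters were chosen on the same thymic cDC2 values, so both counts favour cDC2 and are descriptions. The share of all clusters also takes in those at background.

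Thymocyte markers were higher in thymic cDC2 in 17 of 32 cases and lower in 2 (Cd6 and Ccr9, 1 without any 1 of the 4 arrays), with a median of 1.24. Their mean level was 7.47 and 8.03 on the thymic and 6.28 and 6.46 on the splenic arrays, and 8.32 and 7.89 on those of thymic cDC1. Rag1, the recombinase of developing lymphocytes, read 10.39 and 11.24 against 7.62 and 7.27 (3.37 ± 0.35), and Cd3e 7.76 and 8.22 against 4.95 and 5.05, while Lck, Lat and Zap70 were at background in both organs. Tcf7 and Lef1 belong to this list as well, and the part of thymocyte transcripts in their rise was not tested. B cell markers were lower in 7 of 21 cases, with 4 lower without thymic replicate 1 or splenic replicate 2. Their mean level was 6.86 and 6.91 in the thymus and 7.43 and 8.21 in the spleen. Bank1 and Cd22 (11.10 and 11.27 against 14.20 and 14.12, -2.98 ± 0.22) led that list, whereas Ms4a1, Cd79a and Pax5 had overlapping groups and were not called. Markers of plasmacytoid DCs gave 8 of 18 lower, at mean levels of 8.74 and 8.83 in the thymus and 9.34 and 9.67 in the spleen.

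**Figure D4:**
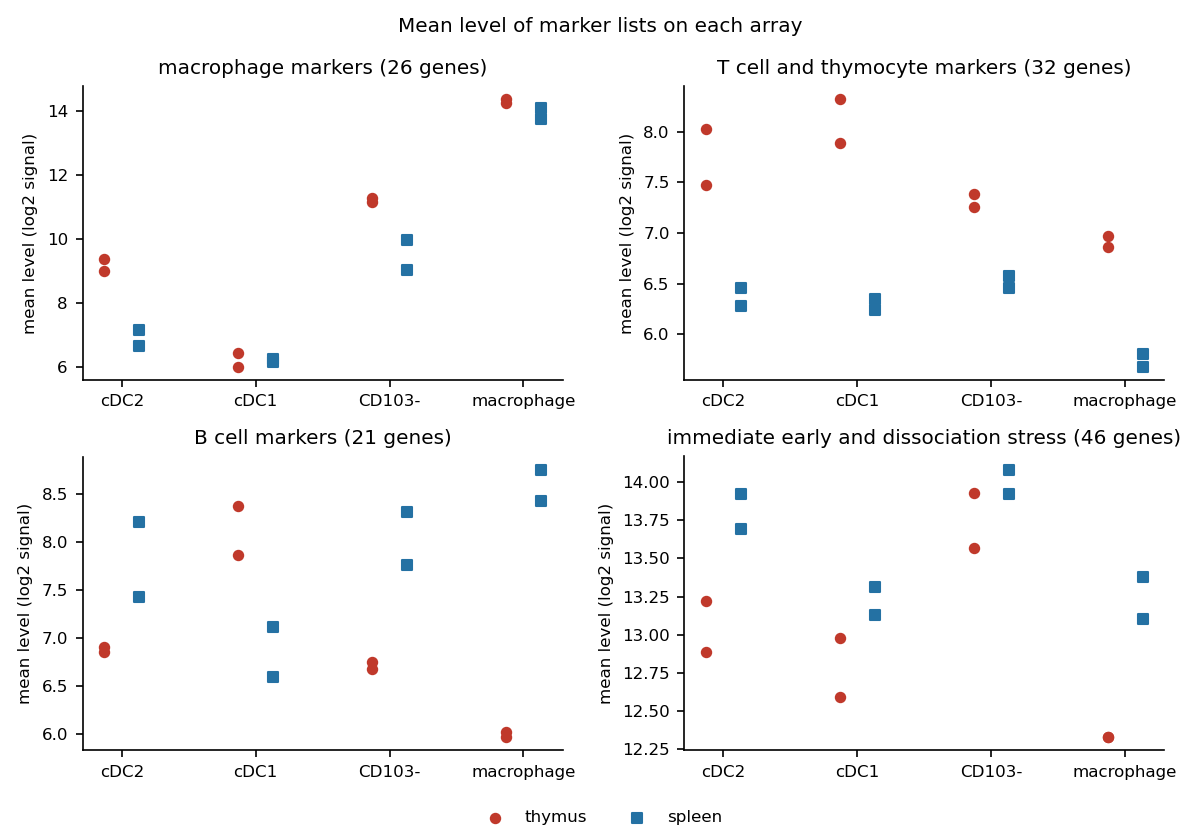
Mean log2 signal of the markers of macrophages, of T cells and thymocytes and of B cells, and of immediate early genes, on each of the 16 arrays (thymus as red circles, spleen as blue squares, 2 points a group). Macrophage markers in thymic cDC2 (8.99 and 9.38) lie between those of thymic cDC1 and of sorted macrophages, and the mean level of thymocyte markers is higher in the thymus than in the spleen in every population.

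To ask which of these differences went beyond what other DCs of the same organs showed, the organ difference in cDC2 was set against that in cDC1 and in CD103- cells. Which autoMACS program was used for each thymic sort was not given. Clusters higher in the thymus in both cDC2 and cDC1 numbered 764, which was 41.3% of the 1852 of cDC2 and 49.2% of the 1552 (6.69% of all) of cDC1, and 540 were lower in both (35.3% of 1530 and 43.3% of 1248, 5.38% of all). With CD103- cells 830 were higher in both (44.8% of 1852 and 50.3% of 1651, 7.12% of all) and 694 lower in both (45.4% and 56.8% of 1222, 5.27% of all). In opposite directions 115 clusters were called in cDC2 and cDC1, and 46 in cDC2 and CD103- cells.

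The difference between the organ differences was itself tested by limma as an interaction. It was called for 1437 clusters (6.2%) against cDC1, 733 above 0 (3.16%) and 704 below (3.04%), and for 823 (3.55%) against CD103- cells, 491 above (2.12%) and 332 below (1.43%). Among the clusters called in cDC2, 293 had both interactions called. Of these 174 were higher in the thymus and more so in cDC2 than in either other population, and 83 lower and more so in cDC2. Interactions were not bounded at background, so those of genes at background in a group are differences of fitted values.

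Both Ccr4 ligands were also higher in thymic cDC1 and CD103- cells. The organ difference of Ccl22 was 10.35 in cDC1, and the interaction of 0.32 ± 0.46 was not called (adjusted p = 0.836), while in CD103- cells it was 6.15, smaller by 4.52 ± 0.46 (adjusted p = 1.2e-05). For Ccl17 the organ differences were 7.51, 8.56 and 7.88 in cDC2, cDC1 and CD103- cells, and neither interaction was called. Plet1 rose in cDC2 and CD103- cells (8.71) but read means of 8.34 and 8.64 in thymic and splenic cDC1, an interaction of 9.85 ± 0.85 (adjusted p = 1.51e-06). Cldn1 was the reverse case among the other populations. It was high in cDC1 of both organs (14.29 and 12.89) and near background in CD103- cells of both (6.0 and 5.42), so that the organ difference of cDC2 exceeded the others by 6.41 ± 0.59 and 7.24 ± 0.59.

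The genes that rose or fell most were chosen on the cDC2 difference that enters both interactions, so their counts below favour cDC2 and are descriptions. Of the 15 genes that rose most, 11 had a larger rise in cDC2 than in cDC1, 8 a larger rise than in CD103- cells and 6 larger than in both. They included Cd207 (5.19 ± 0.63 and 2.58 ± 0.63), Dab2 (8.29 ± 0.55 and 3.98 ± 0.55), Mmp12 (2.13 ± 0.50 and 1.95 ± 0.50), Cldn1 and Lgals1 (3.71 ± 0.38 and 3.38 ± 0.38), with the difference from cDC1 first. The macrophage markers Lyve1 (7.68 ± 0.70 and 6.80 ± 0.70) and Cd163 (5.2 ± 0.69 and 4.11 ± 0.69) were above 0 in both as well. Other markers of that list differed from this. C1qb (3.99 ± 0.8 and -0.11 ± 0.8) and C1qc (4.56 ± 0.83 and -0.03 ± 0.83) were called against cDC1 but not against CD103- cells. Axl was not called against CD103- cells either (1.79 ± 0.71).

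Of the 15 genes that fell most, 12 fell further than in cDC1 and 8 further than in CD103- cells, the latter all among the former. Adgre4 went the other way, with an organ difference of -8.30 in cDC1 against -4.75 in cDC2 and an interaction of 3.56 (adjusted p = 4.38e-05 by limma). For Faim2 the interactions were -7.37 ± 0.55 and -6.35 ± 0.55, with means of 5.37 in splenic cDC1 and 5.91 in splenic CD103- cells against 12.52 and 12.55 on the splenic cDC2 arrays. Treml4 was at a mean of 15.07 in splenic CD103- cells, as high as in splenic cDC2, and thymic CD103- cells were at 11.07, an organ difference of -4.0 and an interaction of -3.55 ± 0.40. Hes1 fell further in cDC2 than in cDC1 (-2.95 ± 0.55, adjusted p = 0.00204) and than in CD103- cells (-4.80 ± 0.55, adjusted p = 3.58e-05). Dtx1, with -4.22 ± 0.33 and -3.63 ± 0.33, was at or below 5.04 in the means of cDC1 and CD103- cells of both organs, all below the background level, while both splenic cDC2 arrays were above it. Cdon fell alike in all, by -5.61, -5.56 and -4.29, with no interaction called.

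**Figure D5:**
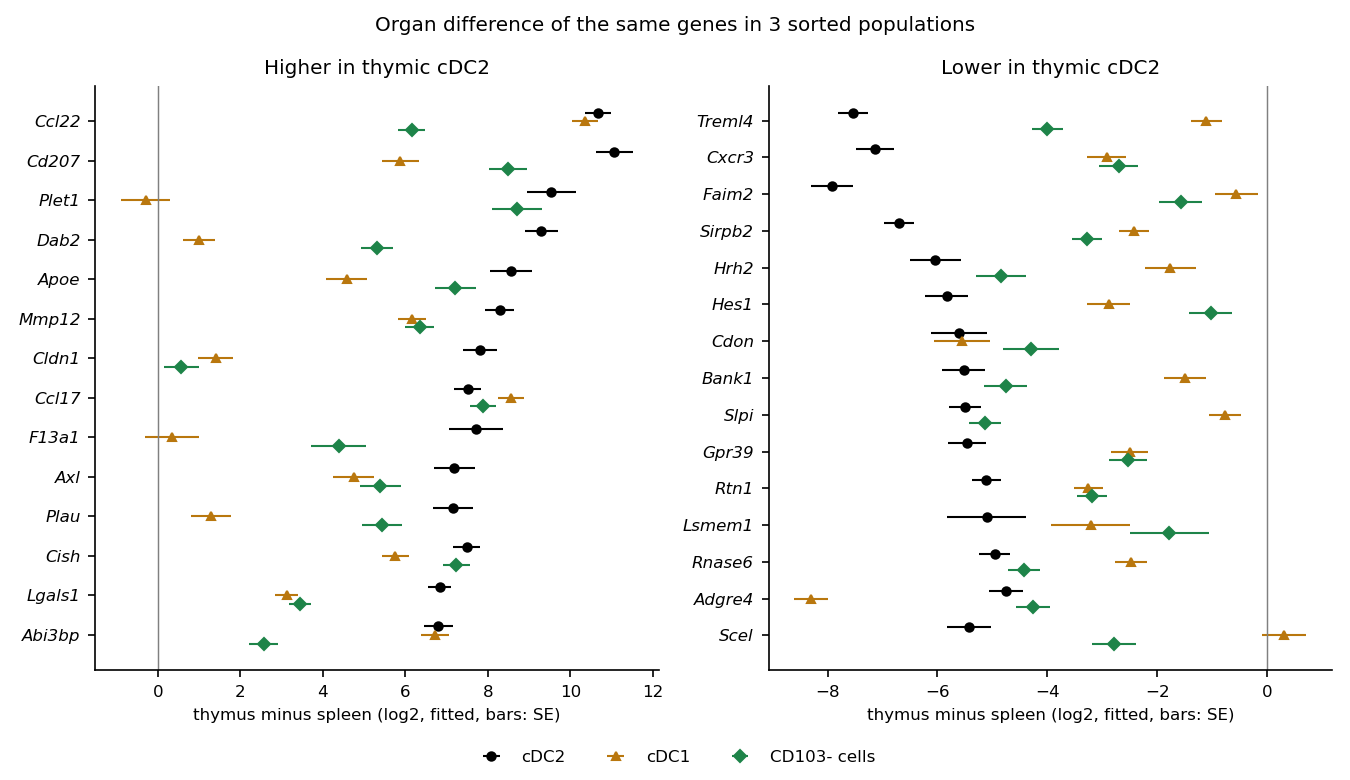
Fitted organ difference (thymus minus spleen, log2, bars give the SE) in cDC2, cDC1 and CD103- cells for 14 of the 15 genes that rose most (left) and the 15 that fell most (right) in thymic cDC2. Fitted values are shown also where a group was at background. Ccl17 and Cdon have similar values in the 3 populations, Plet1 is near 0 in cDC1, and Cldn1 and Faim2 stand far from both other populations.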

How the data were processed

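Gene expression was read on 16 Clariom S rat arrays (8 groups of 2). The deposited tables hold log2 signals with 2 decimals, which the authors made with the Transcriptome Analysis Console, per the submitters' processing notes. How they were normalized and background-corrected, and with which version, is not given in the sources used here. No further normalization was applied. Of 23188 clusters 21498 carried 1 gene symbol, 1673 several and 13 none, and symbols were updated through RefSeq (16238 current, 1973 by synonym, 2455 unmatched). The brightest cluster stood for a gene.

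A model with 8 group means was fitted with limma 3.58.1 in R 4.3.3 by lmFit, then eBayes, on 8 residual degrees of freedom with 9.21 added by the prior. The same fit gave the interactions. Gene lists are described by counts and medians with no set test. The members and lists were chosen with earlier results of these data known, and no call within a list is independent evidence for it. Named genes are a fixed set, the 15 largest called differences each way (bounds at background), up to 6 called members per list and direction and the 8 largest interactions each way. Cd3e, Marco, Spic, Trem2, Vsig4, Lck, Lat, Zap70, Ms4a1, Cd79a and Pax5 were added as defining markers after their values were seen. Promoters came from RefSeq (GRCr8), with windows for 41 of 54 genes looked up. The fit was tested on simulated data. Some genes are not reported here. Figures were drawn with matplotlib.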

Additional observations from a re-analysis of the deposited data

Results flagged for a closer look

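The organ difference of cDC2 differed from that of other DCs of the same organs for part of the clusters, by limma's interaction test. Against cDC1 it did so for 1437 clusters (6.2%) and against CD103- cells for 823 (3.55%). Each value below is the organ difference (thymus minus spleen, log2) in cDC2 minus that in the other population, for the 8 genes per direction with the largest organ difference in cDC2 where the interaction was called. All rest on 2 arrays a group. The genes were chosen on the cDC2 difference that enters each interaction, so larger differences in cDC2 are favoured and the values are descriptions.

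Against cDC1 the difference was larger for Plet1 (9.85), Dab2 (8.29), Cldn1 (6.41), Cd207 (5.19), Apoe (3.98) and Mmp12 (2.13). It was more negative for Faim2 (-7.37), Treml4 (-6.44), Hrh2 (-4.28), Sirpb2 (-4.28), Cxcr3 (-4.22), Bank1 (-4.04) and Hes1 (-2.95). Against CD103- cells it was larger for Cldn1 (7.24), Ccl22 (4.52), Dab2 (3.98), Cd207 (2.58) and Mmp12 (1.95), and more negative for Faim2 (-6.35), Hes1 (-4.80), Cxcr3 (-4.45), Treml4 (-3.55) and Sirpb2 (-3.42).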

How the results depend on the processing

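The count of clusters called in cDC2 was 3382 and stayed within 1.5 times of that under each alternative, from 2306 without thymic replicate 2 to 3528 with array weights. Of 316 named genes called, 238 were called under every alternative other than the 2-fold threshold, 78 were lost with at least 1 array left out and 20 under another alternative. The interaction against CD103- cells called 332 clusters below 0, and 199 to 286 with an array left out, with 199 without replicate 2 of thymic CD103- cells, 217 without thymic cDC2 replicate 1 and 220 without thymic cDC2 replicate 2. The labels do not say what a replicate number ties together. The deviations of same-numbered cDC2 replicates of the organs correlated at 0.09 across clusters, and 4 of 28 pairs of groups were over 0.1, so the numbers were not taken as pairs, although immediate early genes were higher in replicate 1 than in replicate 2 in all 6 DC and CD103- groups. With the replicate number as a block 3451 clusters were called in cDC2, 1543 in the interaction against cDC1 and 909 in that against CD103- cells, and 2 calls of named genes were lost. Uncalled differences changed sign for Ccr2 (-0.01 with median centring), Irf4 (-0.03 with median centring) and Cd86 (0.14 with quantile normalization). With an array left out they did so for Ccr2 (-0.48 and -0.12, range -0.48 to 0.57), Cd86 (0.24, range -0.28 to 0.24), Esam (0.16, range -0.34 to 0.16), Irf4 (-0.24, range -0.24 to 0.28), Irf8 (-0.08, range -0.08 to 0.74) and Sirpa (-0.06 and -0.08, range -0.08 to 0.20). Higher calls were 54.8% of all calls, 49.8% with median centring and 51.7% with quantile normalization. Genes near the background level of 5.72 have no measured fold.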
